A study of Brassica napus with 9 samples.

Results

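Drought-lowered genes returned by fullerol are described here: genes whose leaf transcript level was lower in drought-stressed *B. napus* than in well-watered plants and lay close to the well-watered level when the drought-stressed plants had been sprayed with fullerol. The level is the FPKM, a count of fragments scaled to the length of the gene and to the size of the library. A gene was taken as a member if its mean FPKM reached 5 in CK and 1 in D, if its lowest CK library was at least 2 times its highest D library, and if its return share reached 0.75. The return share sets the distance of D + F from D against the distance of CK from D, as a ratio of differences in group means of log2(FPKM + 1), so that 0 stands for the level in D and 1 for the level in CK. Of the 101040 genes with a Bna identifier, 44 met the rule, which also leaves out 4 identifiers. The levels of all 3 groups thus chose the members, and their contrasts between the groups are given as a description. The calls of the fit across all genes are printed for them as counts, which the rule favoured and which therefore support nothing.

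RNA-seq was done on leaves of wild-type *B. napus* of the Zhongshuang 11 genotype, with 3 libraries in each of 3 groups. D + F plants received 100 mg/L fullerol on their leaves during drought, D plants were at 30% of field capacity with water in place of fullerol, and CK plants stayed well-watered (80% of field capacity) under the same water spray. Each pot held several seedlings, the third leaf was sampled, and the sources do not say how many plants went into a library, so that the spread between libraries may hold less than the spread between plants. The totals by which the FPKM values of a library were scaled were 21939148 to 26042002 read pairs, as solved from the digits of these values. They are smaller than the numbers of clean read pairs that the paper gives. Genes of the carbon fixation list, taken as a check of the leaf label, had a median of 60.9 FPKM over the 9 libraries (28 genes), against 6.32 FPKM for all 50626 genes tested. The study drew this list from differences between D and CK in the same libraries, so that it is no independent check.

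Drought lowers cell water and turgor, and plants answer with abscisic acid signaling, closed stomata and lower growth, so that many transcripts of growth and carbon gain are less abundant in dry leaves. Fullerol is a fullerene carbon cage made water-soluble by hydroxyl groups, and it is known as a scavenger of reactive oxygen species. *B. napus* carries an A and a C subgenome, from *B. rapa* and *B. oleracea*, and most of its genes therefore occur as similar copies on both. In whole leaves, fewer cells of a type and less RNA per cell cannot be told apart.

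The members covered a wide range of abundance. Their group means ran from 4.11 to 3228 FPKM in D + F (median of 13.3), from 1.02 to 1148 FPKM in D (median of 3.23) and from 5.0 to 3603 FPKM in CK (median of 16.9). Most were thus weakly expressed in dry leaves, since 16 of the 44 lay under 10 FPKM in D + F, 35 in D and 15 in CK. Of the totals by which FPKM was scaled, the members together took 0.278 to 0.362% in the D + F libraries, 0.0881 to 0.108% in the D libraries and 0.326 to 0.515% in the CK libraries. In every member, the lowest D + F library lay above the highest D library, which held for 19.8% of all genes tested, and in 22 members it was at least 2 times as high.

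**Figure D1:**
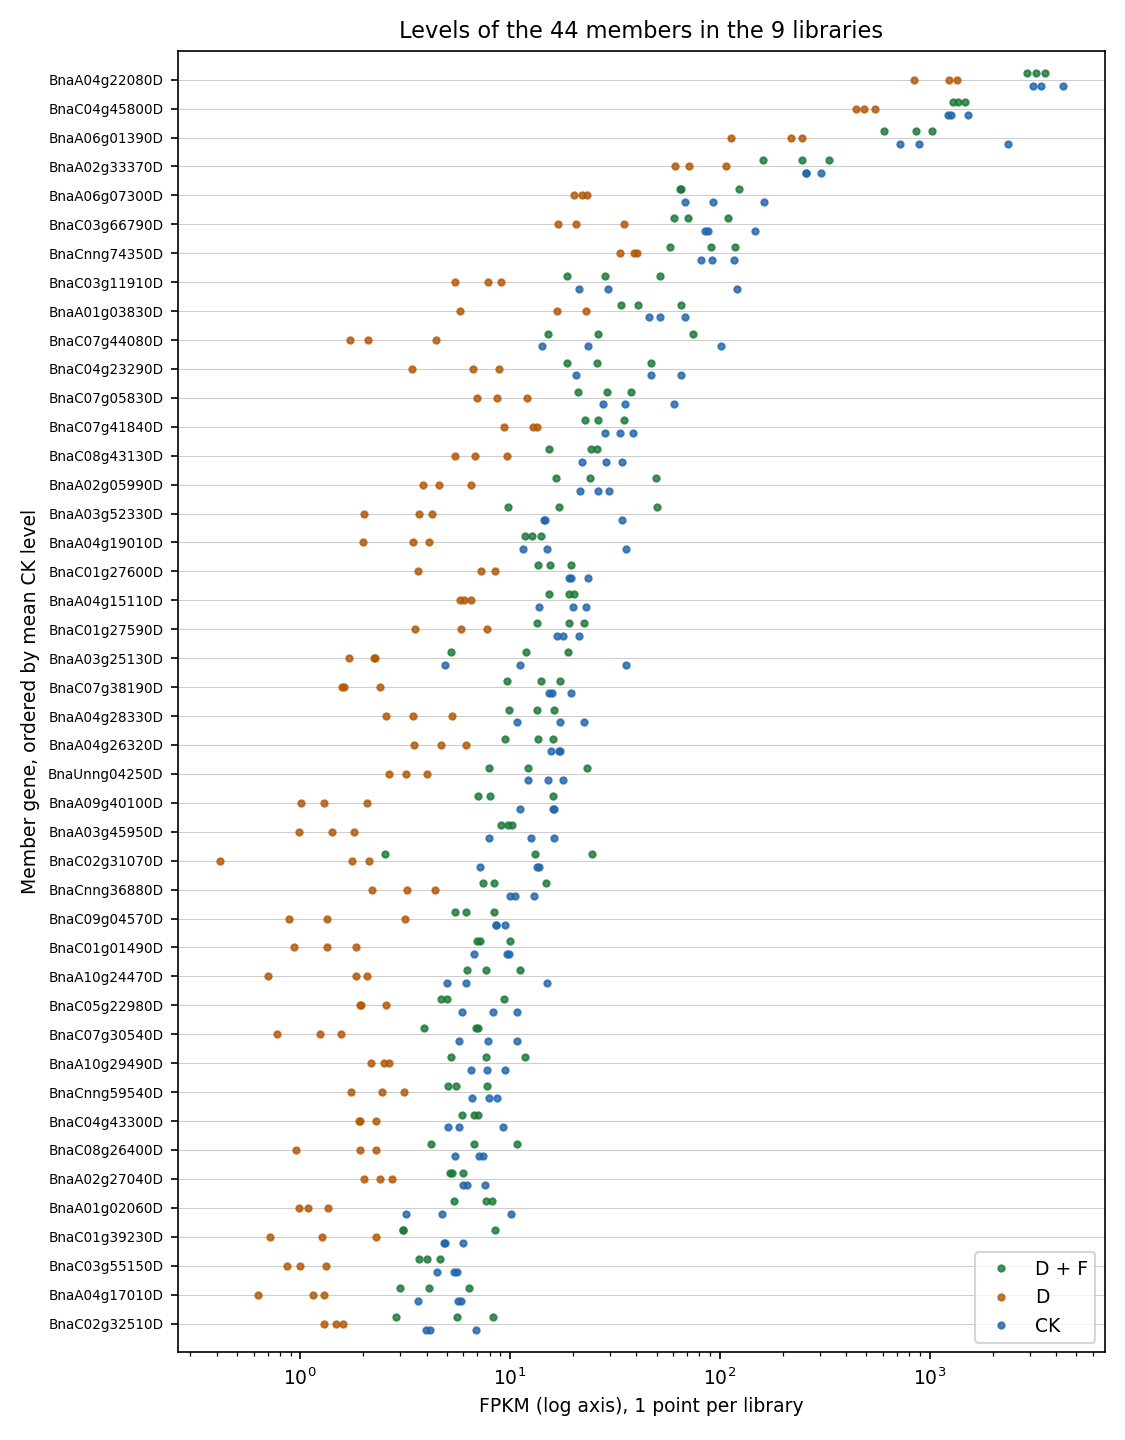
FPKM of each of the 44 members (rows, ordered by their mean in CK) in the 3 D + F, 3 D and 3 CK libraries, 1 point per library on a log axis. The D points lie left of the D + F and CK points in every row, while the D + F points overlap the CK points in 42 rows.

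The ratio of D to CK had a median of 0.224 over the members, and the ratio of D + F to D a median of 3.78, from 2.30 to 13.9. The ratio of D + F to CK had a median of 0.834, from 0.580 to 1.22. Return was therefore mostly short of the CK level, with 8 members above a ratio of 1 and 21 within 1.2-fold of CK in either direction. On the log2(FPKM + 1) scale, the differences had medians of 1.57 (0.94 to 3.16) in D + F vs. D, −1.84 (−3.23 to −1.17) in D vs. CK and −0.23 (−0.51 to 0.32) in D + F vs. CK. Over all genes tested, the medians were 0.14, −0.10 and 0.04. Median-of-ratios scaling, which sets each library against the middle gene of a common reference and brings those medians to 0.01, −0.01 and 0.01, left the members at 1.44, −1.75 and −0.27.

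DEGs were called with limma, a linear model whose error estimate draws on all genes, at a Benjamini-Hochberg adjusted p under 0.05 over the 50626 genes. In this test, 44 of 44 members were down-regulated in D vs. CK, against 19.7% of all genes, and 19 of 44 were up-regulated in D + F vs. D, against 0.808% of all genes (1.15% in either direction). None of the 44 was a DEG in D + F vs. CK, where 17.1% of all genes were, and none had an unadjusted p under 0.05 there, with limma or with voom, its form for counts, on the solved reads. Because the rule used these contrasts, neither the counts nor the p-values of the members are a test of them. All 44 members had an unadjusted p under 0.05 in D + F vs. D, with adjusted values from 0.0144 to 0.183 by limma. The count of 19 changed when single libraries were left out, and so did the 580 DEGs over all genes. Leaving out D 1 gave a count of 0 (2 over all genes), D 2 a count of 1 (11) and D 3 a count of 7 (179). Leaving out D + F 1 gave 25 (576), D + F 2 gave 0 (0) and D + F 3 gave 4 (30). In these limma fits, 43 or 44 members kept an unadjusted p under 0.05.

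The 44 members are the upper end of a single-peaked distribution. By the CK and D criteria alone 1688 genes were drought-lowered, and their return share had a median of 0.35 with quartiles of 0.22 and 0.47 (mean of 0.34 ± 0.21, SD). The share was above 0 in 94.8% of them, reached 0.5 in 350 and reached 1 in 9, all of which are members. A share above 0 means a higher mean in D + F than in D. Over all Bna genes tested this held for 71.6% of those under 500 coding bases, 68.8% of those of 500 to under 1500 and 70.1% of longer ones. The D libraries that chose the drought-lowered genes are also the baseline of the share, and the part of this in the 94.8% was not tested. The members make up 2.61% of the drought-lowered genes, with 28 between 0.75 and 0.9, 7 between 0.9 and 1 and 9 from 1 upward. No gap set them apart, since the nearest members above the threshold had shares of 0.763, 0.777 and 0.779, and the nearest genes below it 0.749, 0.748 and 0.748. When D + F 3 was left out, the rule took 32 genes, of which 28 were among the 44. It took 76 when D + F 1 was dropped, 70, 74 and 69 when D 1, D 2 or D 3 was dropped, and 80 when CK 3 was dropped.

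**Figure D2:**
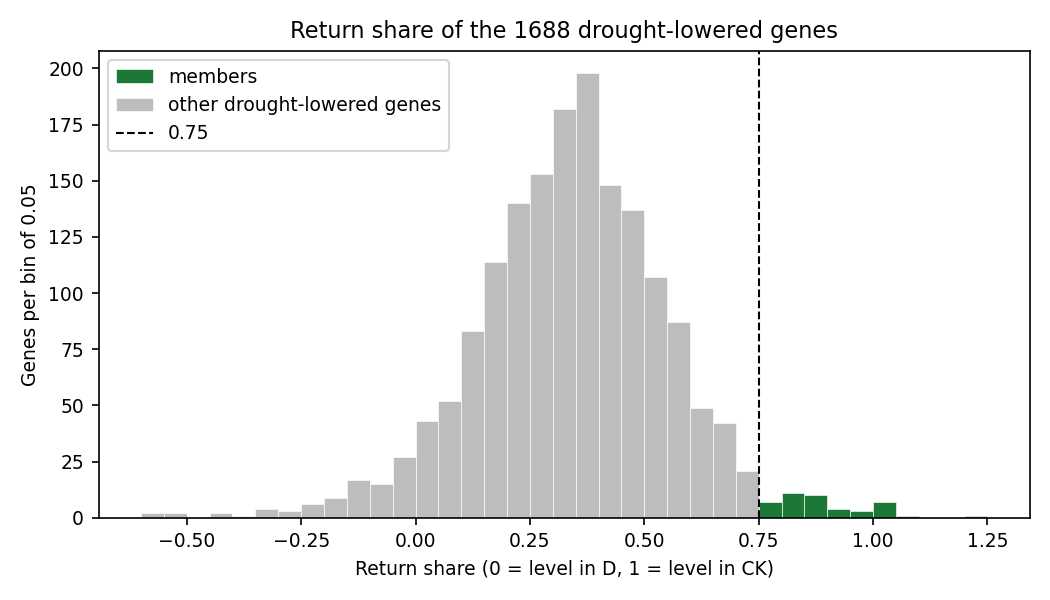
Number of drought-lowered genes (vertical axis, bins of 0.05) by return share (horizontal axis, 0 is the level in D and 1 that in CK), with the 44 members in green and the other drought-lowered genes in grey. The counts peak near the median of 0.35 and thin out without a break across the dashed line at 0.75.

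The return differed between the D + F libraries. Computed from 1 D + F library at a time, the median share of the members was 0.715 in D + F 1, 0.882 in D + F 2 and 1.03 in D + F 3 (SD of 0.155 over the libraries). The same libraries gave 0.351, 0.315 and 0.370 over all drought-lowered genes, which lay closer together. The rule used these D + F values to choose the members. The wider spread of the members is therefore a description, and the part of the choice in it was not tested. In D + F 1, 23 members fell short of 0.75, compared with 10 in D + F 2 and 7 in D + F 3, and only 10 of the 44 reached 0.75 in all 3 libraries. D + F 3 was the highest D + F library for 27 members (61.4%), against 43.2% of the drought-lowered genes, and CK 3 was the highest CK library for 23 (52.3%, against 54.0%). Both held for 17 members (38.6%, against 29.4% of the drought-lowered genes). Whether the plants in these libraries shared a condition was not tested.

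**Figure D3:**
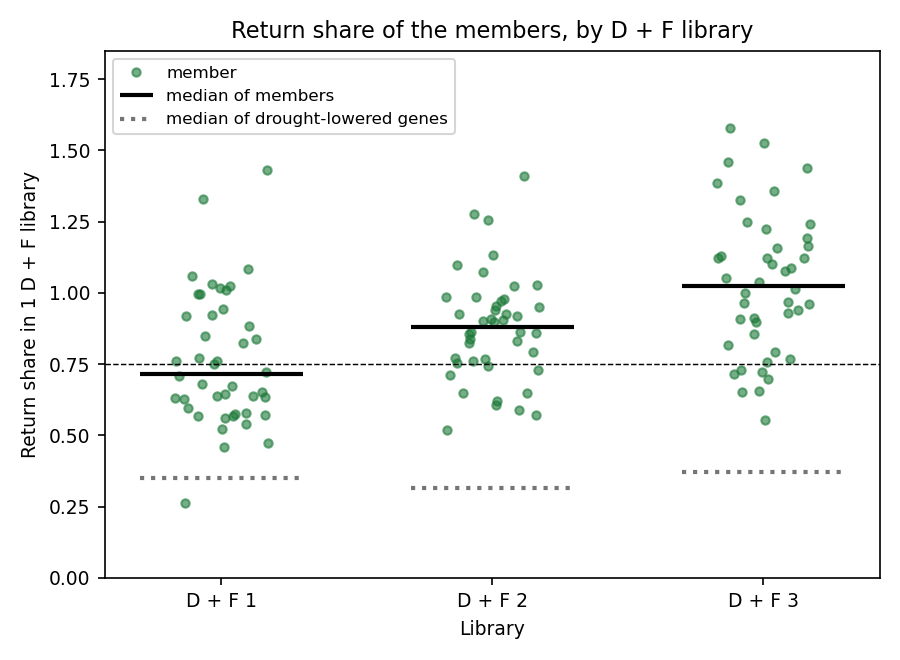
Return share of each member (green points) computed from D + F 1, D + F 2 or D + F 3 alone against the means of D and CK, with the median of the members (black line) and of all drought-lowered genes (dotted line). The medians of the members are 0.715, 0.882 and 1.03, and the dashed line marks 0.75.

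The members were also more variable within a group. The median coefficient of variation was 29.9% in D + F, 29.1% in D and 21.2% in CK, compared with 19.5%, 18.9% and 19.5% for all drought-lowered genes. In D + F, the highest library was over 3-fold above the lowest in 4 members and within 1.5-fold of it in 10. The median member had a mean of 43.3 read pairs in D, against 108 for the median drought-lowered gene. The parts of counting error and of the choice of members in the spread were not tested. The lowest library of a member held between 4 and 7088 read pairs, and it held under 30 in 20 members.

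Since the rule used all 9 libraries, the return was also measured in libraries that had no part in the choice. The rule was applied to 2 libraries per group, and the share was computed in the remaining D + F, D and CK library. With the libraries numbered 1 left out, 165 genes were taken, and their median share in the left-out libraries was 0.546, against 0.343 for the 2638 genes that were drought-lowered in the same 6 libraries. With those numbered 2 left out, 106 genes had a median of 0.764, against 0.284 for 2201 drought-lowered genes. With those numbered 3 left out, 84 genes had a median of 0.742, against 0.374 for 2515 drought-lowered genes. The genes picked for a strong return thus had a higher median than all drought-lowered genes in these 3 left-out sets. Their medians there lay below the 0.851, 0.865 and 0.850 that they had in the libraries that picked them. Only 35 of the 165, 37 of the 106 and 33 of the 84 picked genes were among the members chosen with all 9 libraries. The medians in the left-out libraries therefore describe mostly other genes, and the return of the members alone was not tested there. Of the picked genes, 53 of 165, 54 of 106 and 41 of 84 reached 0.75 again, compared with 10.5%, 6.0% and 14.1% of the drought-lowered genes. The left-out CK library lay above the left-out D library in 149, 102 and 77 of the picked genes. The remaining genes were kept, although with CK not above D a share does not stand for a return toward CK.

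Over all 27 ways of leaving out 1 library per group, the median share of the picked genes averaged 0.660 ± 0.174 (SD), from 0.338 to 1.04, and that of the drought-lowered genes 0.353 ± 0.0413, from 0.263 to 0.457. The picked genes had the higher median in 26 of the 27 sets. In the set of D + F 1, D 1 and CK 3 the order was reversed, with 0.338 for the picked genes and 0.351 for the drought-lowered genes. The 27 values share libraries and are no replicates of each other. As above, genes with CK not above D in the left-out libraries were kept. The value for the picked genes differed with the left-out D + F library, with averages of 0.498 for D + F 1, 0.684 for D + F 2 and 0.797 for D + F 3. The ranges overlapped, from 0.338 to 0.624, from 0.504 to 0.824 and from 0.601 to 1.04. It also differed with the left-out CK library. With D 1 and D + F 1 left out, for example, it was 0.546 for CK 1, 0.529 for CK 2 and 0.338 for CK 3. Of the genes picked without the libraries numbered 1, 78.2% were higher in D + F 1 than in D 1, which is less than the 83.1% of all genes drought-lowered in those 6 libraries. For the libraries numbered 2 and 3, the picked genes were higher in D + F in 99.1% and 98.8%, against 80.7% and 83.8%.

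**Figure D4:**
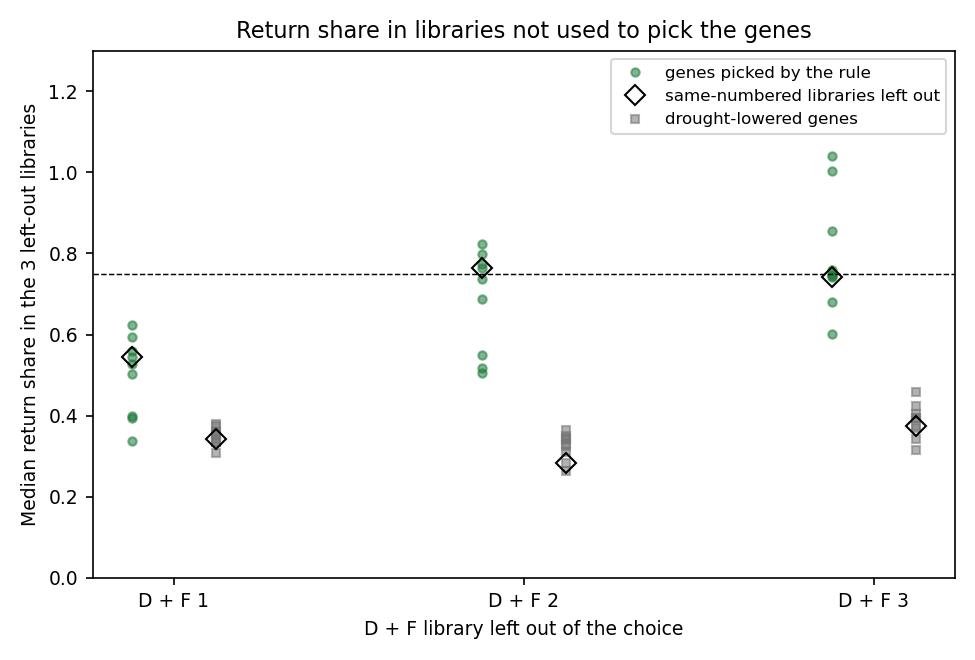
Median return share measured in 1 D + F, 1 D and 1 CK library that had been left out of the choice (vertical axis), by the D + F library left out (horizontal axis), for genes picked by the rule on the other 6 libraries (green) and for all genes drought-lowered in them (grey). Diamonds mark the sets in which libraries of the same number were left out, with 0.546, 0.764 and 0.742 for the picked genes and 0.343, 0.284 and 0.374 for the drought-lowered genes.

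None of the 44 members is paired with a gene symbol in the sources used here, and 3 were found in the pathway lists of the study. Some of these lists were available only in part. These lists were drawn from differences between the same libraries, so that membership in them is not independent of the levels. BnaA10g29490D is listed under inositol phosphate metabolism and phosphatidylinositol signaling, a pathway that turns membrane lipids into second messengers. It had 5.25, 7.73 and 11.7 FPKM in D + F, against 2.64, 2.51 and 2.17 FPKM in D and 7.79, 9.52 and 6.51 FPKM in CK. The D + F libraries ran from below to above all CK libraries, and all lay above those of D. Its return share was 1.0, or 0.632, 0.985 and 1.38 by D + F library, with a difference of 1.37 ± 0.25 (SE) in D + F vs. D and of −1.37 ± 0.17 in D vs. CK.

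The lists assign 2 further Bna genes to the same KEGG gene as BnaA10g29490D, and both were drought-lowered without reaching the threshold. A further locus assigned to it, Novel01193, lies outside the Bna gene models and was not analysed here. BnaAnng36640D had 6.57, 6.64 and 5.53 FPKM in D + F, against 3.23, 3.43 and 2.47 FPKM in D and 11.05, 13.9 and 10.7 FPKM in CK. BnaC09g33980D had 11.6, 10.2 and 9.22 FPKM in D + F, against 4.53, 5.71 and 4.44 FPKM in D and 23.2, 19.8 and 14.9 FPKM in CK. In both of these genes all D + F libraries lay between those of D and those of CK, at shares of 0.505 and 0.533. The D + F levels of the copies were thus alike in size, while the CK level of BnaA10g29490D was the lowest of them.

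BnaC07g41840D is listed under glutathione metabolism, which keeps the main soluble thiol of the leaf reduced, and under taurine and hypotaurine and arachidonic acid metabolism. It had 22.7, 26.3 and 35.0 FPKM in D + F, against 12.9, 9.36 and 13.5 FPKM in D and 28.2, 33.5 and 38.6 FPKM in CK. Its D + F 3 library lay inside the CK range and the other two below it, with a share of 0.817. BnaA03g49440D, assigned to the same KEGG gene, had 22.4, 23.2 and 27.02 FPKM in D + F, against 13.7, 9.44 and 11.2 FPKM in D and 25.6, 34.0 and 34.1 FPKM in CK. It met neither the threshold of the share, with 0.748, nor that of the separation, since its lowest CK library was less than 2 times its highest D library. This A and C pair therefore had much the same pattern on both sides of the threshold.

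BnaC01g01490D is listed under stilbenoid, diarylheptanoid and gingerol biosynthesis, a branch of phenylpropanoid metabolism, and under the broad heading of metabolic pathways. It had 7.22, 6.99 and 9.97 FPKM in D + F, against 1.35, 0.935 and 1.84 FPKM in D and 9.94, 9.70 and 6.74 FPKM in CK. The D + F and CK libraries overlapped, and all lay over 3-fold above every D library. Its share was 0.946, with a difference of 1.93 ± 0.20 (SE) in D + F vs. D and of −2.04 ± 0.21 in D vs. CK.

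Several pathways listed by the study for D + F vs. D held no member. Only lists that were available in full were counted. There was none among the 17 genes of flavonoid biosynthesis, the 23 of phenylpropanoid biosynthesis, the 13 of phenylalanine metabolism, the 18 of amino sugar and nucleotide sugar metabolism or the 12 of cysteine and methionine metabolism. There was 1 among the 15 of glutathione metabolism. With 44 members beside 50626 genes tested, lists this short would mostly hold none by their size alone. The counts are therefore no result about these pathways. These lists hold genes that the study called between D + F and D in the same libraries, so their counts of up-regulated genes were fixed by how they were made and are not given. None of the 17 flavonoid genes met the drought-lowered criteria. Nitrogen metabolism, which takes up nitrate and builds it into amino acids, held 5 drought-lowered genes among 8, with shares of 0.490 to 0.676. In the longer nitrogen metabolism list that the study gives for D vs. CK, 7 of 25 genes tested were drought-lowered, with shares of 0.149 to 0.676 and none a member.

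Among the members outside the lists, BnaC07g44080D had the largest difference in both contrasts. It had 15.2, 26.3 and 74.2 FPKM in D + F, against 4.46, 1.73 and 2.11 FPKM in D and 14.2, 23.6 and 102 FPKM in CK. Replicate 3 was far above the other libraries in D + F as well as in CK, and the D libraries held only 45, 17 and 21 read pairs. The difference was 3.16 ± 0.55 (SE) in D + F vs. D and −3.23 ± 0.66 in D vs. CK.

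BnaA03g52330D, the gene with the next largest difference in D + F vs. D, had 9.78, 17.2 and 50.1 FPKM in D + F, against 4.26, 3.67 and 2.01 FPKM in D and 14.5, 14.8 and 34.1 FPKM in CK. Again replicate 3 stood out in D + F and in CK. The difference was 2.36 ± 0.54 (SE) in D + F vs. D. BnaA03g52330D and BnaC07g44080D have the same coding length of 426 bases, and their identifiers place them on an A and a C chromosome. If they are copies, reads that fit both could have been counted for either or for neither, which the sources used here do not say.

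BnaA09g40100D had the next largest difference in D vs. CK, −2.66 ± 0.22 (SE). It had 16.0, 7.02 and 8.02 FPKM in D + F, against 2.08, 1.3 and 1.01 FPKM in D and 11.1, 16.2 and 16.1 FPKM in CK. Here D + F 1 was the highest D + F library and lay inside the CK range, while the other two lay below every CK library. Its share was 0.807.

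The following members were chosen after their values were seen. BnaA04g22080D was by far the most abundant member, with 3559, 2909.6 and 3217 FPKM in D + F, against 1357, 1243 and 844 FPKM in D and 4306, 3112 and 3391 FPKM in CK. BnaC04g45800D followed, with 1361, 1293 and 1469 FPKM in D + F, against 548, 485 and 448 FPKM in D and 1522, 1221 and 1258 FPKM in CK. In both, the D + F libraries overlapped those of CK and lay over 2-fold above every D library. Their coding lengths are 360 and 357 bases, and together they took 46.5 to 54.2% of the members' read pairs in D + F, 52.6 to 68.0% in D and 32.4 to 58.9% in CK.

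BnaA04g22080D and BnaC04g45800D are among the most deeply counted members, with at least 3731 read pairs in every library. Their shares were 0.91 and 1.03, and by D + F library they ran from 0.823 to 0.998 and from 0.973 to 1.10. In both, every D + F library was thus nearer to CK than to D. The differences in D + F vs. D were 1.52 ± 0.25 and 1.48 ± 0.17 (SE), and those in D vs. CK −1.66 ± 0.34 and −1.43 ± 0.24.

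BnaA01g02060D had the highest share of all members, 1.2. It had 8.23, 7.71 and 5.42 FPKM in D + F, against 0.986, 1.09 and 1.36 FPKM in D and 10.1, 4.73 and 3.19 FPKM in CK. The CK libraries spread over 3-fold and enclosed those of D + F, so that the excess over CK was smaller than the spread within CK. Its difference was 1.91 ± 0.18 (SE) in D + F vs. D and −1.59 ± 0.34 in D vs. CK.

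Equal coding lengths were frequent between members of the A and C subgenomes. Of the 456 possible pairs of an A and a C member, 7 had exactly the same length (1.54%), compared with 0.164% of 707192 such pairs among the drought-lowered genes. The pairs were not matched for length, and the members were shorter, with a median of 631.5 bases against 1140 bases for all drought-lowered genes. The part of this in the 1.54% was not tested. The 7 pairs hold 14 of the 44 members. Sequences were not compared, so that equal length is no proof of a copy, and the homoeologs of the other members were not looked for.

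The levels of a pair were alike in some cases and not in others. BnaA03g45950D and BnaC07g38190D, both of 864 bases, had 10.2, 9.82 and 9.04 FPKM and 17.3, 14.0 and 9.70 FPKM in D + F. They had 1.42, 1.81 and 0.992 FPKM and 1.61, 2.41 and 1.59 FPKM in D. In CK they had 16.2, 12.5 and 7.97 FPKM and 15.8, 15.4 and 19.5 FPKM. Both pair members had D + F libraries over 4-fold above every D library, with differences of 2.16 ± 0.16 and 2.33 ± 0.23 (SE) in D + F vs. D and shares of 0.893 and 0.882.

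BnaA06g01390D and BnaC02g31070D, both of 1032 bases, differed strongly in level. BnaA06g01390D had 859, 605 and 1029.6 FPKM in D + F, against 113, 246 and 219 FPKM in D and 723, 892 and 2376 FPKM in CK. BnaC02g31070D had 2.55, 13.1 and 24.6 FPKM in D + F, against 2.13, 1.77 and 0.415 FPKM in D and 7.18, 13.7 and 13.4 FPKM in CK. The D + F 1 library of BnaC02g31070D was close to its D libraries, at a share of 0.261, while its D + F 2 and D + F 3 libraries gave 1.10 and 1.46. With 60 read pairs in D + F 1 and 52, 42 and 10 in D, this gene gives the clearest case of a mean share near 1 that 1 library does not show.

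BnaC01g27590D and BnaC01g27600D carry consecutive identifiers, the only members to do so, and may thus be neighbours. BnaC01g27590D, of 216 bases, had 13.4, 19.2 and 22.4 FPKM in D + F, against 3.52, 5.83 and 7.74 FPKM in D and 17.8, 16.8 and 21.3 FPKM in CK. BnaC01g27600D, of 1254 bases, had 13.6, 19.6 and 15.6 FPKM in D + F, against 3.64, 7.31 and 8.44 FPKM in D and 19.1, 19.5 and 23.7 FPKM in CK. The levels of the 2 genes were within 1.5-fold of each other in all 9 libraries. Their strands and distance were not analysed here, so that reads from a joint or overlapping transcript cannot be told apart from those of separate genes.

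Coding length is a feature the rule did not use, and it differed along the return share. The median length was 631.5 bases for the 44 members, 957 bases for the 306 drought-lowered genes with a share of 0.5 to 0.75, 1152 bases for the 818 with a share of 0.25 to 0.5 and 1276.5 bases for the 520 below 0.25. All 50626 genes tested included 48002 Bna genes, whose median length was 1017 bases. Genes under 500 bases made up 40.9% of the members (18 of 44), and 21.6%, 15.3% and 11.7% of the genes in the falling order of share, against 19.2% of all Bna genes tested. Short genes collect fewer read pairs at a given FPKM, so the same was done for genes with a mean of at least 100 read pairs in D. There, 5 of 14 members were under 500 bases (35.7%), compared with 11.4%, 7.54% and 4.65%, and the median lengths were 618, 1188, 1374 and 1543.5 bases.

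**Figure D5:**
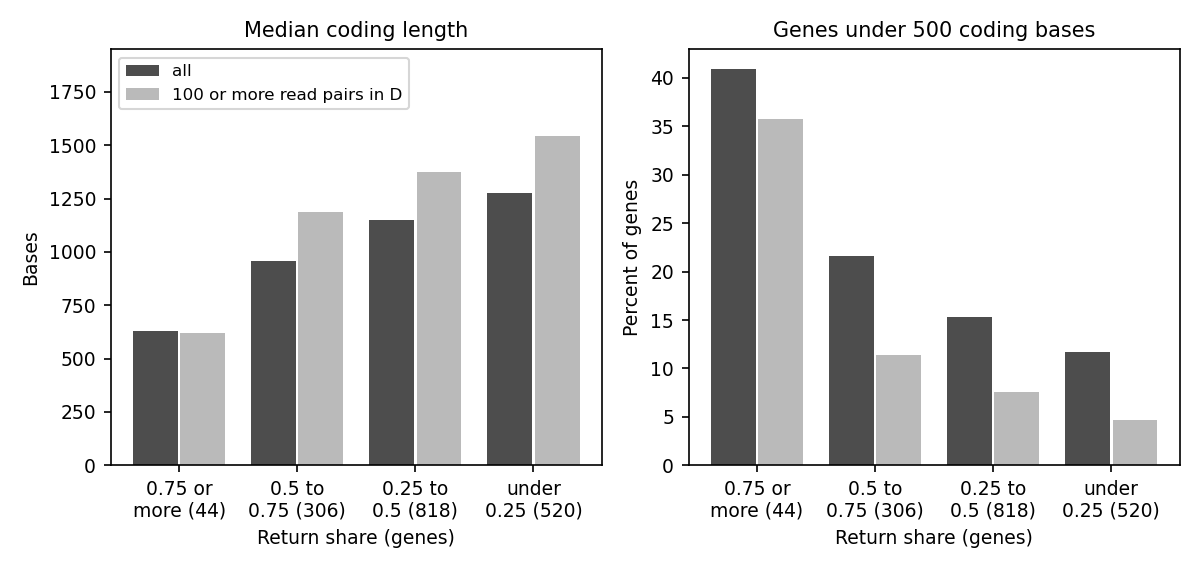
Median coding length in bases (left panel) and percent of genes under 500 coding bases (right panel) of drought-lowered genes by return share, for all genes and for those with a mean of at least 100 read pairs in D. The number of genes is given in brackets for the first kind, and the length was shorter at each step toward a higher share, with 631.5 bases for the 44 members and 1276.5 bases for genes under 0.25.

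A dependence on length was also present outside the drought-lowered genes. Over all Bna genes tested, the median difference was 0.20 for genes under 500 bases, 0.14 for those of 500 to under 1500 bases and 0.11 for longer ones in D + F vs. D. In D vs. CK the medians were 0.03, −0.09 and −0.19, and in D + F vs. CK they were 0.23, 0.05 and −0.09. In each contrast the median was thus higher for shorter genes, while in D + F vs. D it was above 0 at every length. The percent of genes above 0 in D + F vs. D did not follow the length, with 71.6, 68.8 and 70.1 in the same order. The part of this dependence in the lengths of the members was not tested.

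By their identifiers, 19 members lie in the A subgenome, 24 in the C subgenome and 1 in neither, which is 43.2% in A against 48.0% of the drought-lowered genes and 47.1% of all Bna genes tested. A04 held 6 members (13.6%), compared with 3.26% of the drought-lowered genes and 2.89% of all Bna genes tested, and C07 held 5 (11.4%, compared with 5.21% and 4.98%). Drought-lowered genes with a share of 0.5 to 0.75 did not have the higher portion on A04, with 11 of 306 (3.59%). The chromosomes were compared after their counts were seen, and the counts are small.

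Where D + F was set against CK, the libraries of 42 members overlapped. Those of the other 2, named after their values were seen, lay below CK by narrow margins. BnaA02g27040D had 5.19, 5.28 and 5.962 FPKM in D + F, against 2.74, 2.41 and 2.01 FPKM in D and 6.23, 5.963 and 7.62 FPKM in CK. BnaC09g04570D had 5.48, 6.20 and 8.41 FPKM in D + F, against 0.880, 3.17 and 1.34 FPKM in D and 8.60, 9.45 and 8.55 FPKM in CK. No member had all D + F libraries above CK, while the libraries of D + F and CK did not overlap in 39.4% of all genes tested. The rule asked for a D + F level near that of CK, so it favoured this overlap, which is no result about the members. On the log2(FPKM + 1) scale, D + F was below CK in 35 members and above it in 9. Adjusted p ran from 0.191 upward by limma, and the count of 0 was 1 without D + F 1. A p that misses the threshold does not show that the levels of D + F and CK were equal.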

How the data were processed

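RNA-seq of 9 leaf libraries was used, 1 deposited file each, with groups and replicate numbers taken from the sample labels. Per the paper, the authors cleaned the reads, used TopHat to align them to a *B. napus* genome, counted them on genes by HTSeq and deposited the values as FPKM. The submitters' processing notes name Bowtie 0.12.2, and the treatment of reads that fit several copies is not given in the sources used here. Since FPKM is no count, log2(FPKM + 1) was tested with limma 3.58.1 (R 4.3.3, mean-variance trend, 6 libraries per comparison) over 50626 genes above 1 FPKM in at least 3 of the 9 libraries, with Benjamini-Hochberg adjustment and a threshold of 0.05. The sources give no pairing of the replicates beyond their numbers, and the main fit did not pair them.

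Whole read pairs, coding lengths and library totals were solved from the digits of the values for 76351 of 76352 genes, and 99.998% of 589231 values came out whole within 0.02 read pairs. The lengths are nearly all multiples of 3 and hold no UTRs. An alternative test, limma's voom on these read pairs, was added after seeing the data. At the totals of 21939148 to 26042002 read pairs by which FPKM was scaled, 3 read pairs on 1 kilobase correspond to 0.115 to 0.137 FPKM. P-values measure the spread between libraries only.

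The members and lists were chosen with earlier results of these data known. Members were named if they occur in the pathway lists of the study, together with the genes assigned to the same KEGG gene, or if they had the 2 largest differences in D vs. CK or in D + F vs. D outside these lists. The pathway lists and symbols came from the supplementary tables of the study, and the RefSeq gene table gave no member a name. No sequence is printed. The scripts were tested on simulated data. Alternatives were other pseudocounts, filters, scalings and thresholds, the replicate block, limma without trend and leaving out each library. The rule, the counts of members and the plots were computed in Python 3.11.15 using pandas 2.3.3, numpy 2.4.6 and matplotlib 3.10.9.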

Additional observations from a re-analysis of the deposited data

How the results depend on the processing

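The number of genes that meet the rule changed with most settings. It was 29 after median-of-ratios scaling and 26 after quantile normalization, all of them among the 44, compared with 49 with a pseudocount of 0.1 and 59 with group medians, 35 of which were among the 44. A share of at least 0.5 gave 350 genes and one of 0.9 gave 16. A separation of CK from D of 1.5 times gave 143 genes and one of 3 times gave 11. Dropping single libraries gave 32 (D + F 3) to 80 genes (CK 3). The median return share of the 44 stayed between 0.803 and 0.923 over the single libraries dropped, and between 0.811 and 0.880 under the other settings. For genes picked without the libraries they were measured in, its mean was 0.684, against 0.660 to 0.678 under the alternatives. For all drought-lowered genes it was 0.334, against 0.266 after median-of-ratios scaling.

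For the fixed 44 members, the 19 up-regulated in D + F vs. D became 0 when no filter on low values was applied, where 22 in place of 580 genes were DEGs in all, and 14 to 28 with the other settings that keep all libraries unblocked. Dropping single libraries gave 0 (D 1, D + F 2) to 25 (D + F 1), with 0 (D + F 2) to 576 DEGs (D + F 1) over all genes. Between 41 and 44 members were DEGs in D vs. CK with single libraries dropped, 40 without a filter on low values, and 38 of the 38 tested at a mean FPKM of at least 5. BnaA04g22080D was no longer a DEG there without D 3, without the filter, or with the block and median-of-ratios scaling. In D + F vs. CK the count was 0 to 1. No direction of a named gene was reversed. With the replicate number as a block, 0 of the 44 members and 1 gene in all were DEGs in D + F vs. D, and 0 members with the block and median-of-ratios scaling together, while all 44 stayed DEGs in D vs. CK under the block. Libraries of the same number correlated in their deviations from the group means between −0.29 and 0.31. In D + F vs. CK these values were 0.31, 0.05 and 0.27, against −0.28 to 0.04 for libraries of different numbers. In D vs. CK they were −0.29, 0.06 and −0.02 (different numbers: −0.25 to 0.26). In D + F vs. D they were −0.19, −0.10 and 0.22 (different numbers: −0.28 to 0.32). Whether libraries of the same number shared a condition was not tested.

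The limits lie in the choice of members by all 9 libraries, in 3 libraries per group, in under 30 read pairs in some library of 20 members, and in identifiers without symbols or sequences.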
